A study of Homo sapiens with 6 samples.

Results

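The endoplasmic reticulum (ER) is where secreted and membrane proteins are folded, and the genes described here are 40 named components of that work in ACHN, an established human cell line derived from a renal cell adenocarcinoma. The list was fixed by gene name: chaperones, disulfide isomerases, components of ER-associated degradation (ERAD), sensors and transcription factors of the unfolded protein response, and parts of the translocon. All 40 names were found among the 60409 rows of the deposited tables, and all 40 passed the filter on low counts, among 18583 genes tested. The cells received siRNA by transfection and RNA was taken 48 h later. The NC group received a negative control siRNA, and the siMEX3A_1 and siMEX3A_2 groups each received a different siRNA against MEX3A, an RNA-binding protein. Each group had 2 libraries, 6 in all, from the same cell line with no further genotype or treatment in the labels.

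A protein entering the ER passes through the SEC61 channel, is bound by the HSP70 chaperone BiP (gene HSPA5) or, if it carries N-linked sugars, by the lectins calnexin and calreticulin, and is cross-linked by disulfide isomerases. A protein that fails to fold is marked by mannosidases, passed back through the membrane by the HRD1 ubiquitin ligase complex and degraded by the proteasome. When unfolded protein builds up, the sensors ATF6, IRE1 (gene ERN1) and PERK act through the transcription factors ATF6, XBP1 and ATF4, which raise the transcription of many chaperone and ERAD genes.

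The best known DNA sequences through which ATF6 and XBP1 act are the ER stress response element (ERSE, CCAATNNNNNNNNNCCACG), its shorter form (ERSE-II, ATTGGNCCACG) and the core of the unfolded protein response element (UPRE, TGACGTGG). They were searched on both strands of the RefSeq promoter windows of build GRCh38.p14, which hold 250 bases before and 50 after each gene start and covered 37 of the 40 genes. The 250 bases before the start are shown for 5 genes, because they let the matches be seen in a chaperone, an HSP90, an HSP70 family member, an ERAD gene and a transcription factor whose counts are compared further on. A match needed every fixed letter of the element, and near matches were not counted. Capitals mark the matches, read 5′ to 3′ on the strand of the gene. The windows lie at chr9:125241344-125241593 on the minus strand for HSPA5, chr12:103930160-103930409 on the plus strand for HSP90B1, and chr11:119057206-119057455 on the minus strand for HYOU1. Those of HERPUD1 and XBP1 lie at chr16:56931892-56932141 on the plus strand and chr22:28800570-28800819 on the minus strand, the latter being the first of 2 windows for XBP1.
HSPA5: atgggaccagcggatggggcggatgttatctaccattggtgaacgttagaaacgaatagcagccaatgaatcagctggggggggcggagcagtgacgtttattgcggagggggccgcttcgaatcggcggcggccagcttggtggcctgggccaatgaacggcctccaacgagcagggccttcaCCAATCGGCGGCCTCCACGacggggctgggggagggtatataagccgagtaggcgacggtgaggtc
HSP90B1: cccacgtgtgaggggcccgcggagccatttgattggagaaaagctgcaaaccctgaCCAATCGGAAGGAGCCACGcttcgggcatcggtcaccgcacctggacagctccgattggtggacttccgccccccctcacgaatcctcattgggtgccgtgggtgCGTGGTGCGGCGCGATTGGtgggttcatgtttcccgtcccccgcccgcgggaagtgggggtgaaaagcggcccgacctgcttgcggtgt
HYOU1: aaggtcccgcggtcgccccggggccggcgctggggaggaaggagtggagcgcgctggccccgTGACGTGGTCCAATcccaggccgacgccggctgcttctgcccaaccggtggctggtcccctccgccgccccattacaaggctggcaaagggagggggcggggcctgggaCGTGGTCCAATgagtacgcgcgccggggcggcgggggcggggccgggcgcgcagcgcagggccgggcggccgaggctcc
HERPUD1: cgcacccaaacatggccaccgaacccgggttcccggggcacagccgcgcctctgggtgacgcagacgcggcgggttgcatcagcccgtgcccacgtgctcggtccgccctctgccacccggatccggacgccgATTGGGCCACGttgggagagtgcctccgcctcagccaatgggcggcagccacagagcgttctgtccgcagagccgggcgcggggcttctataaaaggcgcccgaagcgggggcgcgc
XBP1: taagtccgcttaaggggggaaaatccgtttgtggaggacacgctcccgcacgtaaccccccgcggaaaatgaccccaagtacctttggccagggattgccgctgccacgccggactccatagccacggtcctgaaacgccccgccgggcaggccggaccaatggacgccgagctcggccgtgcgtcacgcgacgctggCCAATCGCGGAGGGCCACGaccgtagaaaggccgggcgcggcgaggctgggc

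By exact match, HSPA5 and XBP1 held 1 ERSE each, HSP90B1 held 2 on opposite strands, HERPUD1 held 1 ERSE-II, and HYOU1 held 2 ERSE-II. These are not counts of all elements in the promoters. The HERPUD1 sequence also holds a stretch that differs from ERSE in 1 fixed letter, which was not counted. The UPRE core of HYOU1, at 188 to 181 bases before the start, overlapped the ERSE-II at 185 to 175 bases. The matches in the other ERSE and ERSE-II genes are aligned below with the fixed letters in capitals, each written in the orientation of the element, to show that the letters between the fixed parts differed from gene to gene while the fixed ends were shared by construction.
CRELD2 ERSE: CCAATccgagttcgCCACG
CALR ERSE: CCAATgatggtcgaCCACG
CANX ERSE: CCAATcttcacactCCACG
PDIA6 ERSE: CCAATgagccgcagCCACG
SERP1 ERSE: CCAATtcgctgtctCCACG
SDF2L1 ERSE-II: ATTGGtCCACG

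ERSE matched 8 of the 37 genes with a window (21.6%) and 25 of the 27305 genes in the whole promoter table (0.0916%). ERSE-II matched 3 of 37 (8.11%) against 0.0696%, and the UPRE core matched 3 of 37 (8.11%), in HYOU1, TXNDC5 and DNAJC10, against 0.927%. The ERSE was first described in promoters of this gene family, HSPA5 among them, so its presence in these genes is background. A match is a stretch of letters and was not tested for binding.

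**Figure D1:**
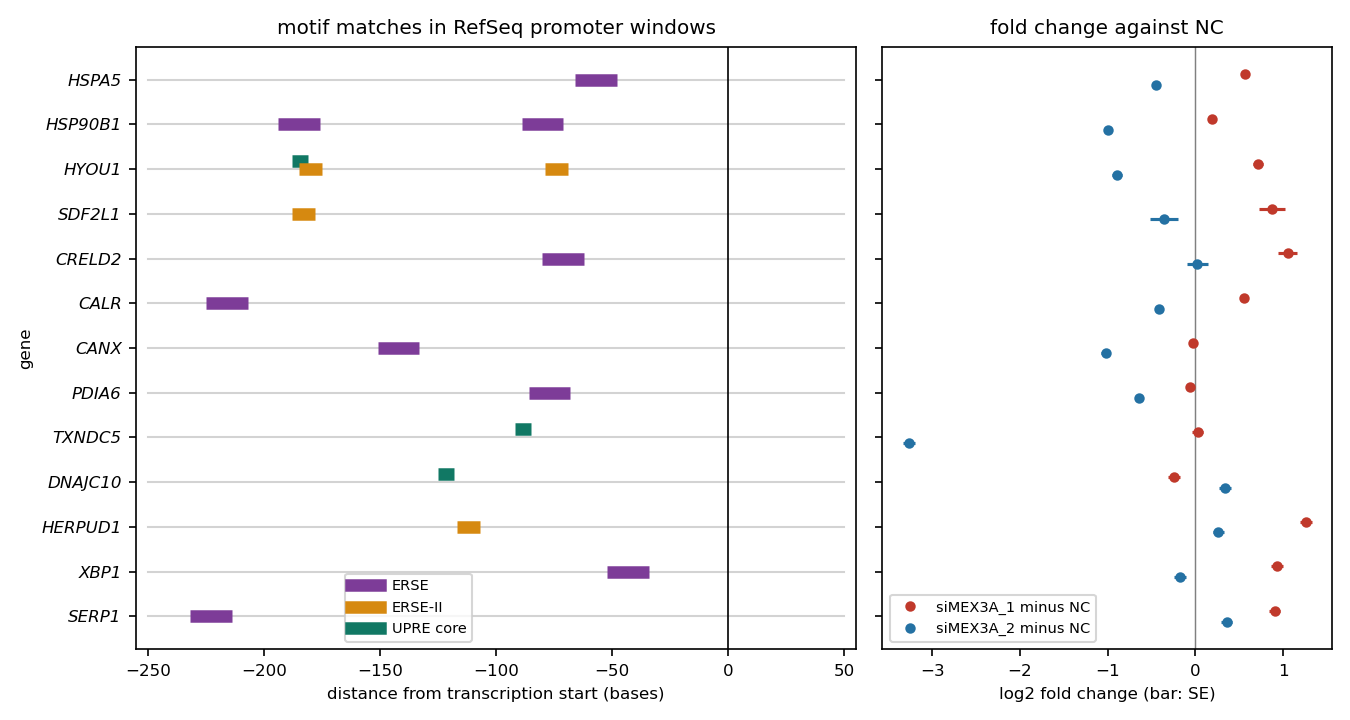
Positions of the motif matches in the promoter windows of the 13 genes that held any, by distance in bases from the gene start (0), with each gene on its own line and a colour for each motif (left), beside the log2 fold changes of the same genes against NC with bars of 1 SE (right). For genes with several windows 1 is drawn (the first of CANX and XBP1, the second of PDIA6 and TXNDC5), and the ERSE of HSPA5 lies 66 to 48 bases before the start.

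Library totals were even, from 18825618 to 19158566 rounded counts, and the biological coefficient of variation over all genes was 6.26%. MEX3A, the targeted gene, was a low transcript, with 94 and 109 counts in NC, 56 and 64 with siMEX3A_1, and 73 and 76 with siMEX3A_2. No siRNA library reached the NC libraries. The log2 fold change was -0.71 (SE 0.17, edgeR quasi-likelihood test, adjusted p = 0.00655) with siMEX3A_1 and -0.42 (SE 0.17, adjusted p = 0.0644) with siMEX3A_2, and the call for siMEX3A_1 was lost with DESeq2 (adjusted p = 0.0888). Of 9 renal epithelial markers, 8 had counts in every library, and their summed counts ran from 57460 to 58261 in NC, 75732 to 78409 with siMEX3A_1 and 48777 to 50310 with siMEX3A_2. The renal markers differed among themselves: KRT8 had 11441 and 11662 counts in NC and 27386 and 25284 with siMEX3A_1, while PAX8 had 15337 and 16523 in NC and 12221 and 11762 with siMEX3A_1. The 5 fibroblast markers summed to 1182 to 1326 counts in NC, 674 to 711 with siMEX3A_1 and 1066 to 1206 with siMEX3A_2. Nearly all of the fibroblast sum was COL1A1, with 1141 and 1299 counts in NC, 690 and 659 with siMEX3A_1, and 1179 and 1039 with siMEX3A_2, and DCN, LUM, PDGFRA and COL3A1 had 0 to 21 counts. Endothelial and leukocyte markers were near 0, with sums of 0 to 8 and of 2 to 30, and CD3E had 0 in every library. The part of these shifts in the results was not tested. Whether replicate libraries stem from separate cultures is not stated in the labels, and p-values therefore measure library-to-library spread that may be technical.

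More of the ER folding genes were higher than lower with siMEX3A_1, and more were lower than higher with siMEX3A_2. Against NC, 24 of the 40 genes were higher with siMEX3A_1 and 5 were lower, where 27% and 25.9% of all genes tested were called higher and lower. With siMEX3A_2, 8 were higher and 17 were lower, where the background was 25.2% and 25.7%. Tested directly against each other, 31 of 40 were higher with siMEX3A_1 than with siMEX3A_2 and 4 were lower, against a background of 26% and 25.5%. In either direction 29, 25 and 35 of the 40 genes were called in these 3 contrasts, against 52.9%, 50.9% and 51.6% of all genes tested. These shares were not matched to the 40 genes by count level. Among the 11344 tested genes with a promoter window the shares were larger. There, 31.7% were higher and 30.0% lower with siMEX3A_1, 29.4% and 30.4% with siMEX3A_2, and 30.7% and 29.1% in the direct contrast. The median log2 fold change of the 40 genes was 0.40 with siMEX3A_1 and -0.17 with siMEX3A_2, and the median direct difference was 0.67. The medians over all genes tested were -0.012, -0.002 and -0.001.

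Of all counts, the 40 genes together took 0.803% and 0.825% in NC, 0.975% and 0.964% with siMEX3A_1, and 0.557% and 0.565% with siMEX3A_2. The 3 groups did not overlap, siMEX3A_1 being high and siMEX3A_2 low. Abundant genes weigh most in such a sum, and the roles differed. With siMEX3A_2 the summed normalized counts lay above NC for the ERAD and translocon genes, and under NC for every other role. Counts of bulk RNA cannot tell fewer cells expressing a gene apart from less RNA per cell. Because both contrasts use the same 2 NC libraries, they are not independent, and the direct contrast is the test of the difference between the siRNAs. With 1 siRNA per group, an effect of lower MEX3A and any other effect of that siRNA cannot be told apart.

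Called changes of at least 2-fold were few against NC. With siMEX3A_1, CRELD2 and HERPUD1 rose that far, 2 of 40 against a background of 7.02%, and 0 of 40 fell that far against 9.8%. With siMEX3A_2, 0 of 40 rose 2-fold (background 5.86%) and TXNDC5, PDIA4, UGGT1, CANX and PDIA5 fell, 5 of 40 against 7.53%. In the direct contrast 14 of 40 were at least 2-fold higher with siMEX3A_1, where the background was 6.66%, and DERL1 was lower, 1 of 40 against 8.22%.

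By pattern, 11 genes were higher with siMEX3A_1 and lower with siMEX3A_2, a combination that 4.06% of all genes tested showed. They were HSPA5, HSP90B1, HYOU1, MANF, CALR, FKBP2, PPIB, P4HB, PDIA3, PDIA5 and CREB3L2. Only DNAJC10 and ATF6 had the opposite combination among the 40, where the background was 3.61%. DNAJB9, DNAJC3, ERP44, HERPUD1, OS9 and SERP1 were higher with both siRNAs (background 14%), and PDIA4 alone was lower with both (background 13.7%). SDF2L1, CRELD2, SEL1L, SYVN1, EDEM2, DERL2 and XBP1 passed the test with siMEX3A_1 only, upwards, and EDEM1 and DERL1 with siMEX3A_1 only, downwards. CANX, UGGT1, PDIA6, TXNDC5 and EDEM3 passed with siMEX3A_2 only, downwards. Each of these 34 genes also passed the direct test between the siRNAs, which 51.6% of all genes tested passed. Most of the 34 were sorted by unlike calls against the same NC libraries, so this is a description and no further test. The direct calls of ERP44 and OS9 were lost under several alternatives, as given with those genes. Of the 6 genes that passed in neither contrast with NC, DNAJB11, ERP29, DERL3, SEC61A1 and SEC61B did not pass the direct test, and ERN1 did.

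**Figure D2:**
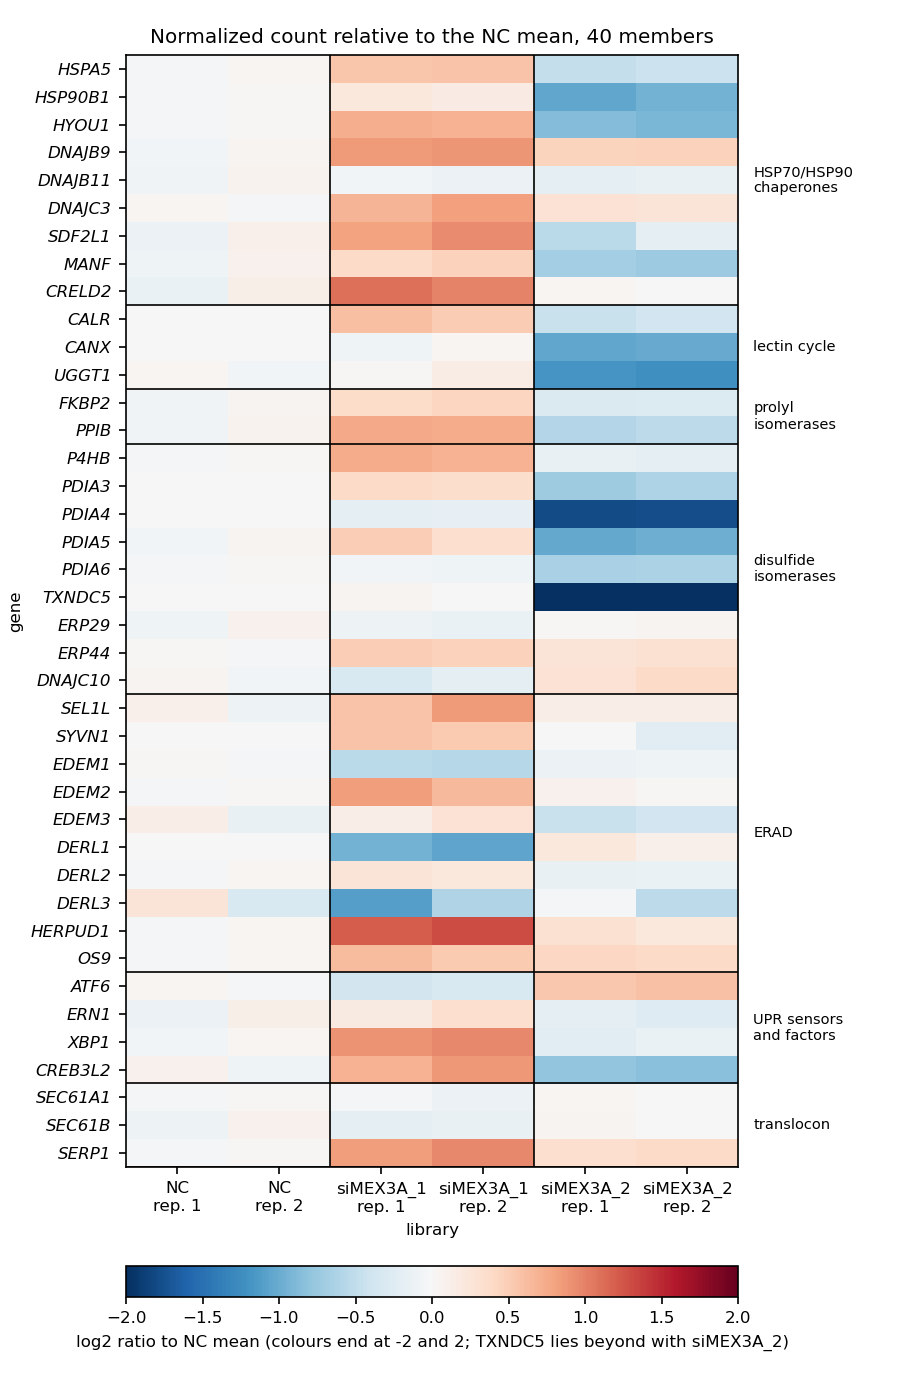
Each library's normalized count of the 40 genes as a log2 difference from that gene's NC mean (colour), with genes in rows by role and the 6 libraries in columns. TXNDC5 and PDIA4 are the lowest with siMEX3A_2, at log2 fold changes of -3.27 and -1.78.

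The chaperones of the HSP70 and HSP90 families and their partners were mostly higher with siMEX3A_1 and split with siMEX3A_2. Of 9 genes, 8 were higher and 0 lower with siMEX3A_1, and 2 were higher and 4 lower with siMEX3A_2 (1 higher without NC replicate 2 or siMEX3A_2 replicate 1). Of all genes tested, 27% were higher and 25.9% lower with siMEX3A_1, and 25.2% and 25.7% with siMEX3A_2. The summed normalized counts of the 9 genes were 40269 and 42026 in NC, 54228 and 53712 with siMEX3A_1, and 25166 and 25983 with siMEX3A_2. HSPA5, the central ER chaperone and the partner that keeps the stress sensors inactive, had 12979 and 13704 normalized counts in NC, 19597 and 19809.8 with siMEX3A_1, and 9613 and 9866 with siMEX3A_2. The siMEX3A_1 libraries stood highest and the siMEX3A_2 libraries lowest, without overlap. Against NC its log2 fold change was 0.56 (SE 0.04, adjusted p = 3.39e-06) and -0.45 (SE 0.04, adjusted p = 2e-05), and the direct difference was 1.02 (SE 0.04, adjusted p = 1.08e-07) by edgeR's quasi-likelihood test, which gives every adjusted p that follows unless another tool is named. Values in this form are log2 fold changes, and where 2 are given against NC the siMEX3A_1 value comes first.

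HYOU1, an HSP70 relative that exchanges the nucleotide of BiP, had 3046 and 3123 normalized counts in NC, 5118 and 5000.1 with siMEX3A_1, and 1690.5 and 1633 with siMEX3A_2. Its siMEX3A_1 libraries were high and its siMEX3A_2 libraries low, and its direct difference, 1.61 (SE 0.05, adjusted p = 3.26e-08), was the largest of the 9 chaperones and partners. HSP90B1, the ER form of HSP90, had 20607 and 21299 normalized counts in NC, 24305 and 23526 with siMEX3A_1, and 10212 and 10833 with siMEX3A_2. Here the rise was small, 0.19 (SE 0.04, adjusted p = 0.00438), and the fall with siMEX3A_2 was close to 2-fold, -0.99 (SE 0.04, adjusted p = 2.62e-07). MANF, a small secreted protein that binds BiP, had 805 and 902 normalized counts in NC, 1108 and 1170.2 with siMEX3A_1, and 531 and 514 with siMEX3A_2. The 3 groups of MANF did not overlap, and its log2 fold changes were 0.42 (SE 0.07, adjusted p = 0.000779) and -0.71 (SE 0.08, adjusted p = 4.39e-05).

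SDF2L1, a partner of the ER DNAJ proteins, had 116 and 135 normalized counts in NC, 218 and 242 with siMEX3A_1, and 86.02 and 109 with siMEX3A_2. Its siMEX3A_1 libraries stood above the other 4, and the siMEX3A_2 value, which did not pass, was -0.36 (SE 0.16, adjusted p = 0.0887). CRELD2, an ER-resident protein induced by stress, had 161 and 191 normalized counts in NC, 377 and 352 with siMEX3A_1, and 180.1 and 177 with siMEX3A_2. The siMEX3A_2 libraries of CRELD2 lay between the 2 NC libraries, and the change that passed was that of siMEX3A_1, 1.05 (SE 0.11, adjusted p = 2.88e-05), and the direct difference was 1.03 (SE 0.11, adjusted p = 3.51e-05).

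The DNAJ co-chaperones of BiP had other patterns than HSPA5. DNAJB9, also called ERdj4, rose with siMEX3A_1 (0.86, SE 0.07, adjusted p = 3.61e-06) and with siMEX3A_2 (0.45, SE 0.07, adjusted p = 0.000373). DNAJC3, an inhibitor of PERK also called P58IPK, rose by 0.75 (SE 0.07, adjusted p = 1.36e-05) and 0.27 (SE 0.07, adjusted p = 0.0101), and the second call was lost without NC replicate 2 (adjusted p = 0.0765) or siMEX3A_2 replicate 1 (adjusted p = 0.0738). For both genes the direct test was passed as well, with siMEX3A_1 higher by 0.41 and 0.48. DNAJB11 (ERdj3) passed none of the 3 tests, with log2 fold changes of -0.09 and -0.16.

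**Figure D3:**
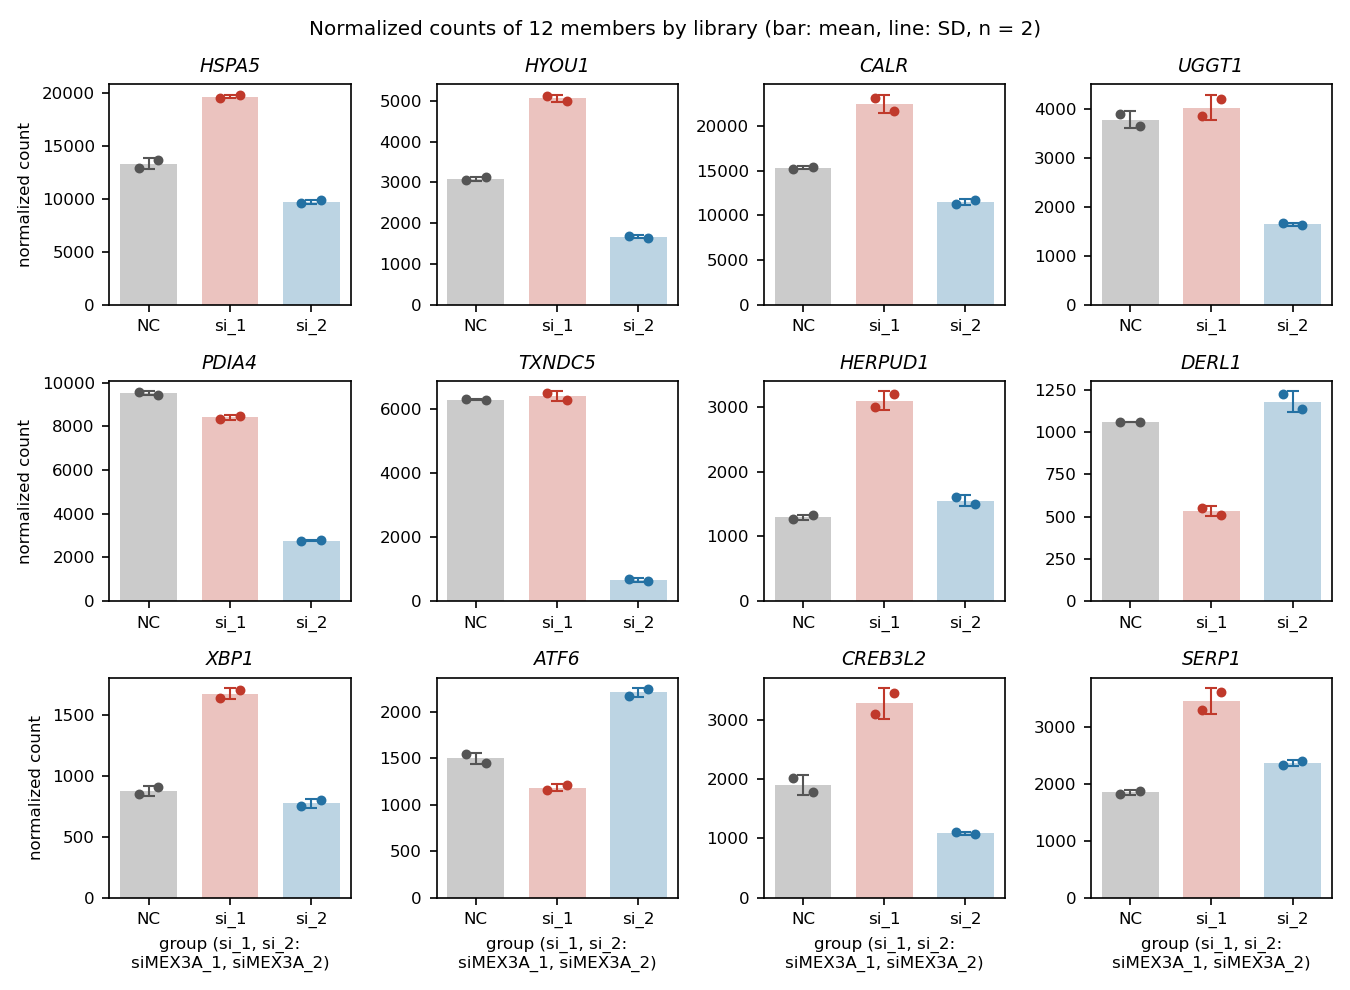
Normalized counts of single genes (vertical axes, each starting at 0) in the 3 groups, with 1 point per library, bars at the mean of the 2 and lines of 1 SD. The short labels si_1 and si_2 stand for siMEX3A_1 and siMEX3A_2. HSPA5 and HYOU1 separate with siMEX3A_1 above and siMEX3A_2 below NC, whereas TXNDC5 is low with siMEX3A_2 alone, at 692 and 614 normalized counts.

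In the lectin cycle, calreticulin, calnexin and the sensor that returns unfolded glycoproteins to them fell together with siMEX3A_2, 3 of 3. With siMEX3A_1, 1 of 3 rose. Of all genes tested, 25.7% fell with siMEX3A_2 and 27% rose with siMEX3A_1. CALR (calreticulin, the soluble lectin) had 15266 and 15476 normalized counts in NC, 23212 and 21745 with siMEX3A_1, and 11289 and 11751 with siMEX3A_2. It was high with siMEX3A_1 and low with siMEX3A_2, at 0.55 (SE 0.04, adjusted p = 5.56e-06) and -0.42 (SE 0.04, adjusted p = 4.75e-05). CANX (calnexin, the membrane-bound lectin) had 12369 and 12214 normalized counts in NC, 11549.7 and 12572 with siMEX3A_1, and 5972 and 6120.4 with siMEX3A_2. Its siMEX3A_1 libraries enclosed the NC libraries, while the siMEX3A_2 libraries were 2.03-fold lower, -1.02 (SE 0.05, adjusted p = 4.85e-07). UGGT1, the glucosyltransferase that marks unfolded glycoproteins, had 3895 and 3650.3 normalized counts in NC, 3840.5 and 4202 with siMEX3A_1, and 1660.5 and 1617 with siMEX3A_2. UGGT1 likewise overlapped NC with siMEX3A_1 and fell with siMEX3A_2 (-1.20, SE 0.07, adjusted p = 7.9e-07).

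Both prolyl isomerases rose with siMEX3A_1 and fell with siMEX3A_2, a combination that 4.06% of all genes tested showed. PPIB, cyclophilin B, which acts in collagen folding among other roles, had 3045 and 3332 normalized counts in NC, 5399.7 and 5346 with siMEX3A_1, and 2115 and 2229 with siMEX3A_2. The groups were apart, with 0.75 (SE 0.06, adjusted p = 4.94e-06), -0.55 (SE 0.06, adjusted p = 5.65e-05) and a direct difference of 1.31 (SE 0.06, adjusted p = 1.9e-07). FKBP2, of the FK506-binding family, had 420.0 and 458 normalized counts in NC, 565 and 589 with siMEX3A_1, and 361 and 361 with siMEX3A_2. The siMEX3A_1 libraries were high and the siMEX3A_2 libraries low. Its fall with siMEX3A_2, -0.28 (SE 0.08, adjusted p = 0.0129), was lost with DESeq2 (adjusted p = 0.118), in the authors' deposited table (adjusted p = 0.192), and without NC replicate 2 (0.1), siMEX3A_2 replicate 1 (0.0703) or siMEX3A_2 replicate 2 (0.0847).

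The disulfide isomerase family, whose thioredoxin-like domains form and exchange disulfide bonds, was split among its own members. Of 9 genes, 4 rose and 2 fell with siMEX3A_1, where 27% and 25.9% of all genes tested rose and fell. With siMEX3A_2, 2 rose and 6 fell, where the background was 25.2% and 25.7%. The falls with siMEX3A_1 and the rises with siMEX3A_2 in this family were thus near the background shares. The genes that fell with siMEX3A_1, PDIA4 and DNAJC10, both lost that call without NC replicate 1, at log2 fold changes of -0.16 and -0.18. Without siMEX3A_1 replicate 1 the call of DNAJC10 was lost, at -0.17. Scaling by library size alone gave 4 falls with siMEX3A_1. Fold changes with siMEX3A_2 ran from -3.27 to 0.34 on the log2 scale. Their summed normalized counts were 51570.0 and 52298 in NC, 59325 and 58402 with siMEX3A_1, and 33216 and 33751 with siMEX3A_2.

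TXNDC5 (ERp46), a disulfide isomerase with several thioredoxin-like domains, had 6308 and 6283 normalized counts in NC, 6513 and 6294 with siMEX3A_1, and 692 and 614 with siMEX3A_2. The NC and siMEX3A_1 libraries overlapped, and the siMEX3A_2 libraries lay far under them. The fall with siMEX3A_2 was 9.64-fold, -3.27 (SE 0.07, adjusted p = 1.18e-08), the largest change of the 40 genes against NC, and with siMEX3A_1 the value was 0.02 (SE 0.06, adjusted p = 0.756). The row for the readthrough transcript BLOC1S5-TXNDC5, which can share reads with TXNDC5, had 249 and 236 normalized counts in NC, 98.1 and 115 with siMEX3A_1, and 69.02 and 107 with siMEX3A_2. The sum of both rows was 6557 and 6519 in NC, 6611 and 6409 with siMEX3A_1, and 761 and 721 with siMEX3A_2, and this sum was low with siMEX3A_2 as well.

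PDIA4 (ERp72), a family member with several active domains, had 9569 and 9439 normalized counts in NC, 8326 and 8491 with siMEX3A_1, and 2761 and 2778 with siMEX3A_2. It was low with siMEX3A_2, at 3.43-fold under NC (-1.78, SE 0.04, adjusted p = 2.33e-08). With siMEX3A_1 it was a little under NC (-0.18, SE 0.04, adjusted p = 0.00683), a call that was lost without NC replicate 1 (adjusted p = 0.0534). PDIA5, a further member of the family, had 560.0 and 608 normalized counts in NC, 821 and 735 with siMEX3A_1, and 288 and 295 with siMEX3A_2. Its groups were apart in the pattern of HSPA5, with 0.41 (SE 0.08, adjusted p = 0.00137) and -1.001 (SE 0.09, adjusted p = 1.07e-05).

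P4HB, the founding protein disulfide isomerase and a subunit of collagen prolyl hydroxylase, had 10124 and 10412 normalized counts in NC, 17236 and 16611 with siMEX3A_1, and 9281 and 9047 with siMEX3A_2. Its change was mainly the rise with siMEX3A_1 (0.72, SE 0.04, adjusted p = 6.34e-07). The fall with siMEX3A_2 was small (-0.16, SE 0.04, adjusted p = 0.00963) and was lost without NC replicate 2 (adjusted p = 0.0625) or siMEX3A_2 replicate 2 (adjusted p = 0.111). PDIA3 (ERp57), the isomerase that works with calnexin and calreticulin, had 6941 and 7034 normalized counts in NC, 9145 and 8964 with siMEX3A_1, and 4275 and 4539 with siMEX3A_2. PDIA3 was high with siMEX3A_1 and low with siMEX3A_2, at 0.37 (SE 0.05, adjusted p = 0.000121) and -0.67 (SE 0.05, adjusted p = 4.21e-06). The pseudogene row PDIA3P1, whose reads can be hard to tell from those of PDIA3, held between 0.286% and 2.63% of the PDIA3 counts.

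PDIA6 (P5) fell with siMEX3A_2 (-0.64, SE 0.04, adjusted p = 3.05e-06), and its siMEX3A_1 value was -0.07, which passed with library size as the only scaling (adjusted p = 0.041). ERP44, which retains unassembled proteins in the early secretory pathway, rose with both siRNAs, by 0.47 (SE 0.06, adjusted p = 0.000129) and 0.28 (SE 0.06, adjusted p = 0.00384). Its direct difference was small, 0.19 (SE 0.06, adjusted p = 0.0246), and was lost under 7 of the alternatives, DESeq2 among them (adjusted p = 0.0772), and without any 1 of the 4 siRNA libraries (adjusted p from 0.0509 to 0.153). DNAJC10 (ERdj5), a reductase that breaks disulfides before degradation, went the other way from HSPA5: it was lower with siMEX3A_1 (-0.24, SE 0.07, adjusted p = 0.0116) and higher with siMEX3A_2 (0.34, SE 0.07, adjusted p = 0.00196). The lower call was lost without NC replicate 1 (adjusted p = 0.111) or siMEX3A_1 replicate 1 (adjusted p = 0.084), and the direct difference was -0.58 (SE 0.07, adjusted p = 5.65e-05). ERP29, a chaperone with a thioredoxin fold, passed none of the 3 tests with all libraries. It passed as lower with siMEX3A_1 without NC replicate 1 (adjusted p = 0.0449) and when libraries were scaled by their totals alone (0.0463), and as lower in the direct contrast under 4 alternatives (adjusted p from 0.0283 to 0.0443), leaving out NC replicate 1 among them.

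**Figure D4:**
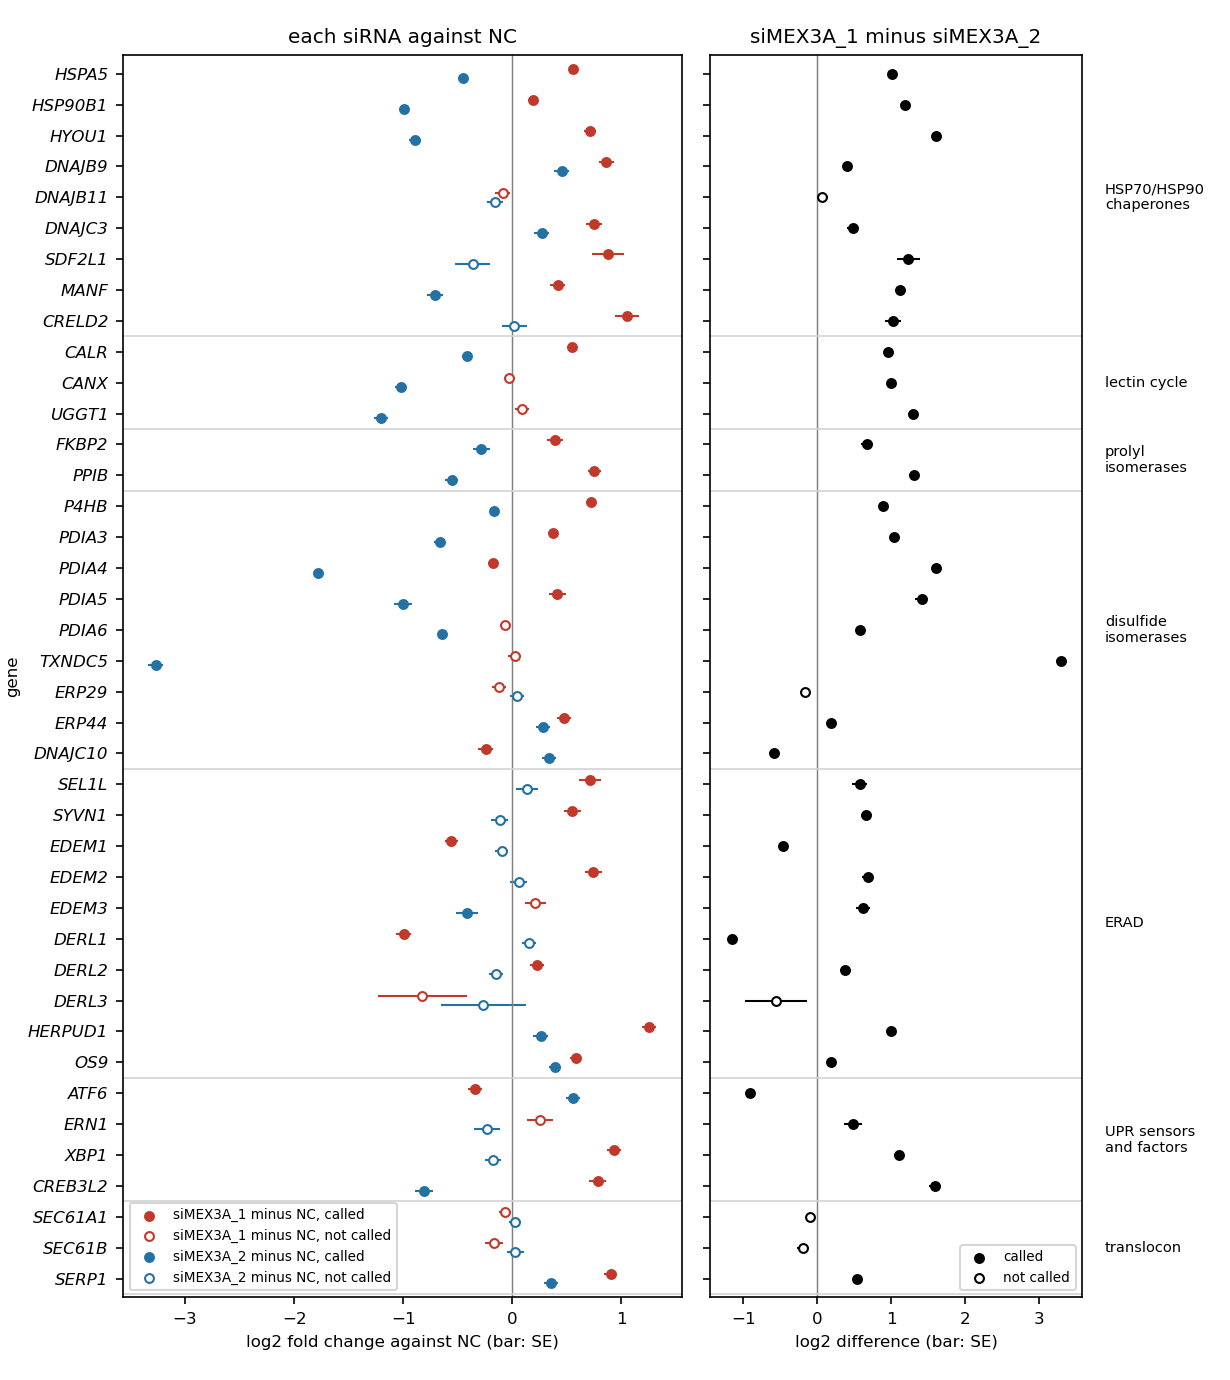
Log2 fold change of each of the 40 genes against NC (left) and between the siRNAs (right), with bars of 1 SE, grouped by role. Filled markers passed the test and open ones did not. The siMEX3A_1 markers lie mostly right of 0 and the siMEX3A_2 markers mostly left of it among chaperones and isomerases, while the siMEX3A_2 values of the ERAD genes stay between -0.41 and 0.39.

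Against shares of 52.9% and 50.9% over all genes tested, more ERAD genes passed the test with siMEX3A_1 than with siMEX3A_2. Of 10, 6 rose and 2 fell with siMEX3A_1, and 2 rose and 1 fell with siMEX3A_2 (1 and 0 without NC replicate 1 or siMEX3A_2 replicate 1). Of all genes tested, 27% rose and 25.9% fell with siMEX3A_1, and 25.2% rose and 25.7% fell with siMEX3A_2. The ERAD falls with siMEX3A_1 and rises with siMEX3A_2 were near those shares. The summed normalized counts of the 10 genes were 12259 and 12023 in NC, 16458 and 16714 with siMEX3A_1, and 13377 and 13046 with siMEX3A_2. HERPUD1, a membrane protein that helps assemble the HRD1 complex, had 1268 and 1327 normalized counts in NC, 2997 and 3201 with siMEX3A_1, and 1611 and 1501 with siMEX3A_2. Its siMEX3A_1 libraries stood more than 2-fold over NC, 1.26 (SE 0.07, adjusted p = 3.23e-07), the largest rise of the 40 genes against NC. The small rise with siMEX3A_2, 0.26 (SE 0.07, adjusted p = 0.00904), was lost without NC replicate 1 (adjusted p = 0.0622) or siMEX3A_2 replicate 1 (adjusted p = 0.087).

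DERL1, a derlin of the retrotranslocation channel, moved against HERPUD1, with 1059 and 1058 normalized counts in NC, 551 and 510.1 with siMEX3A_1, and 1221 and 1137 with siMEX3A_2. It was low with siMEX3A_1 alone, -0.996 (SE 0.07, adjusted p = 2.07e-06), and the direct difference was -1.15 (SE 0.07, adjusted p = 9.08e-07). DERL2, a derlin of the same family, was higher with siMEX3A_1 (0.23, SE 0.06, adjusted p = 0.0121), a call lost with DESeq2 (adjusted p = 0.0502), in the authors' deposited table (0.112), with library size as the only scaling (0.0551) and without NC replicate 1 (0.09). DERL3 had 25.8 and 17.6 normalized counts in NC, 10.1 and 14.3 with siMEX3A_1, and 21.01 and 15.02 with siMEX3A_2, and it passed none of the 3 tests.

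SEL1L, the scaffold of the HRD1 complex, had 1839.9 and 1592 normalized counts in NC, 2539 and 3096 with siMEX3A_1, and 1888 and 1889 with siMEX3A_2. Both siMEX3A_1 libraries were above the other 4, 0.72 (SE 0.10, adjusted p = 0.000202). SYVN1, which encodes the HRD1 ligase itself, rose as well (0.55, SE 0.08, adjusted p = 0.000198). OS9, a lectin that delivers glycoproteins to that complex, rose with both siRNAs (0.58, SE 0.06, adjusted p = 2.14e-05, and 0.39, SE 0.06, adjusted p = 0.000357). The direct difference of OS9 was 0.19 (SE 0.06, adjusted p = 0.0195), and it was lost without siMEX3A_1 replicate 1 (adjusted p = 0.0994), siMEX3A_2 replicate 1 (0.0698) or siMEX3A_2 replicate 2 (0.143), and when libraries were scaled by their totals alone (0.0692).

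The EDEM family, mannosidase-like proteins that mark glycoproteins for degradation, split by gene. EDEM2 had 586 and 606 normalized counts in NC, 1068 and 929 with siMEX3A_1, and 633 and 608 with siMEX3A_2. It rose with siMEX3A_1 (0.74, SE 0.08, adjusted p = 2.93e-05). EDEM1 was lower with siMEX3A_1 (-0.56, SE 0.06, adjusted p = 4.01e-05) and EDEM3 was lower with siMEX3A_2 (-0.41, SE 0.10, adjusted p = 0.00575). The EDEM3 call was lost without NC replicate 1 (adjusted p = 0.0613) or siMEX3A_2 replicate 1 (adjusted p = 0.0633). With siMEX3A_1, EDEM3 passed as higher without NC replicate 1 (adjusted p = 0.0155) or siMEX3A_1 replicate 1 (adjusted p = 0.0393) and not with all libraries.

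Among the sensors and transcription factors, XBP1 had 849.9 and 907 normalized counts in NC, 1644 and 1711 with siMEX3A_1, and 751 and 803 with siMEX3A_2. It was high with siMEX3A_1 (0.93, SE 0.07, adjusted p = 2.5e-06), and the siMEX3A_2 libraries lay under both NC libraries without passing the test (-0.18, SE 0.07, adjusted p = 0.0613). Under 4 alternatives the fall with siMEX3A_2 passed, with adjusted p from 0.0375 to 0.0499. Gene counts do not show the splicing of XBP1 by IRE1. CREB3L2, a membrane-bound transcription factor of the OASIS group that promotes secretory capacity, had 2018 and 1788 normalized counts in NC, 3094 and 3462 with siMEX3A_1, and 1105 and 1068 with siMEX3A_2. Its groups were far apart, 0.79 (SE 0.08, adjusted p = 2.2e-05) and -0.81 (SE 0.08, adjusted p = 3.02e-05), and the direct difference was 1.59 (SE 0.08, adjusted p = 2.95e-07).

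ATF6, the sensor that is itself cut into a transcription factor, had 1544 and 1456 normalized counts in NC, 1157 and 1211 with siMEX3A_1, and 2178 and 2245 with siMEX3A_2. It was low with siMEX3A_1 and high with siMEX3A_2, -0.34 (SE 0.06, adjusted p = 0.00141) and 0.56 (SE 0.06, adjusted p = 6.05e-05), the reverse of HSPA5, with a direct difference of -0.90 (SE 0.06, adjusted p = 2.32e-06). ERN1, which encodes IRE1, had 196 and 229 normalized counts in NC, 239.7 and 267 with siMEX3A_1, and 185 and 177 with siMEX3A_2. The siMEX3A_1 libraries of ERN1 stood above those of siMEX3A_2, 0.48 (SE 0.12, adjusted p = 0.00682). Neither siRNA passed against NC, and the direct call was lost without siMEX3A_2 replicate 2 (adjusted p = 0.0598).

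Of the 3 translocon genes, 1 rose with each siRNA and 2 did not pass. Of all genes tested, 27% rose with siMEX3A_1 and 25.2% with siMEX3A_2. SEC61A1, the channel itself, had 4340.0 and 4451 normalized counts in NC, 4339 and 4036 with siMEX3A_1, and 4521 and 4410.1 with siMEX3A_2. SEC61B, its small subunit, had 579.9 and 663 normalized counts in NC, 545 and 563 with siMEX3A_1, and 645 and 623 with siMEX3A_2. Neither passed any of the 3 tests, although SEC61B passed as lower with siMEX3A_1 with library size as the only scaling (adjusted p = 0.0381) and without NC replicate 1 (0.0395), and as lower in the direct contrast under 3 alternatives (adjusted p from 0.0318 to 0.0399). SERP1 (RAMP4), a stress-associated protein that binds the translocon, had 1822 and 1881 normalized counts in NC, 3300.5 and 3618 with siMEX3A_1, and 2333 and 2406 with siMEX3A_2. SERP1 rose with both siRNAs, more with siMEX3A_1, at 0.90 (SE 0.06, adjusted p = 2.01e-06) and 0.36 (SE 0.06, adjusted p = 0.00118), and the direct difference was 0.55 (SE 0.06, adjusted p = 5.99e-05).

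Set against the promoter matches, the 8 genes with an ERSE (HSPA5, HSP90B1, CRELD2, CALR, CANX, PDIA6, XBP1 and SERP1) were all higher with siMEX3A_1 than with siMEX3A_2, 8 of 8, with a median difference of 1.01 on the log2 scale. The 29 genes with a window and no exact ERSE match, HERPUD1 among them, had a median of 0.62, with 22 higher and 3 lower. The 3 genes with an ERSE-II (HYOU1, SDF2L1 and HERPUD1) were also higher in the direct contrast, with a median of 1.24. The 34 members with a window and no ERSE-II had 27 higher and 3 lower, with a median of 0.65. The 10 tested genes outside the list that held an ERSE-II had 3 higher and 3 lower, with a median of 0.01. The 8 tested genes outside the list that held an ERSE had a median of -0.03, with 4 higher and 3 lower. Among all 11344 tested genes with a window, 30.7% were higher and 29.1% lower. Against NC, the 8 ERSE genes had 6 higher and 0 lower with siMEX3A_1, and 1 higher and 5 lower with siMEX3A_2. The 29 members without an ERSE had 17 higher and 4 lower with siMEX3A_1 (58.6% and 13.8%), and 7 higher and 11 lower with siMEX3A_2 (24.1% and 37.9%). Among all tested genes with a window, 31.7% were higher and 30.0% lower with siMEX3A_1, and 29.4% and 30.4% with siMEX3A_2. No difference between members with and without an ERSE or an ERSE-II was tested. The split is by exact match, and members counted as without an element can hold a near match, as HERPUD1 does. TXNDC5, which holds a UPRE core and no exact ERSE match, had the largest direct difference. DNAJC10, with a UPRE core on the reverse strand, had a direct difference of the opposite sign.

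Other genes of the same pathways were counted from lists chosen with earlier results of these data known, so the counts are a description. Of all 18583 tested genes, 27% were higher and 25.9% lower with siMEX3A_1, and 25.2% and 25.7% with siMEX3A_2. Genes listed under the PERK arm were mostly higher with both siRNAs, 8 of 8 with siMEX3A_1 (median 0.91), and 6 of 8, with 1 lower, with siMEX3A_2 (median 0.92). RNA counts do not show the activity of PERK, and its part in these changes was not tested. TRIB3, a pseudokinase induced by ATF4 and CHOP, had 393 and 407 normalized counts in NC, 2674 and 2665 with siMEX3A_1, and 941 and 920.3 with siMEX3A_2, and it passed the test at 2.74 (SE 0.07, adjusted p = 8.06e-09) and 1.22 (SE 0.07, adjusted p = 7.99e-07). PPP1R15A, the phosphatase subunit GADD34 that restarts translation, rose by 2.38 (SE 0.07, adjusted p = 1.17e-08) and 2.20 (SE 0.07, adjusted p = 3.95e-08), with a direct difference of 0.17 (SE 0.06, adjusted p = 0.0336) that was lost without siMEX3A_1 replicate 1 (adjusted p = 0.145), siMEX3A_2 replicate 1 (adjusted p = 0.169) or siMEX3A_2 replicate 2 (adjusted p = 0.117), and when libraries were scaled by their totals alone (adjusted p = 0.108). DDIT3, which encodes the transcription factor CHOP, rose by 1.999 (SE 0.07, adjusted p = 4.15e-08) and 1.35 (SE 0.08, adjusted p = 9.4e-07). SESN2, a stress-induced regulator of growth signalling, rose by 1.07 (SE 0.07, adjusted p = 7.48e-07) and 1.51 (SE 0.07, adjusted p = 2.17e-07), and was lower with siMEX3A_1 than with siMEX3A_2 in the direct test (-0.44, SE 0.06, adjusted p = 0.000217). EIF2AK3, which encodes PERK, was the gene that was lower with siMEX3A_2, at -0.295 on the log2 scale, and is named here after its value was seen. That call was lost with DESeq2 (adjusted p = 0.0629) and in the authors' deposited table (adjusted p = 0.0831). It was also lost without NC replicate 1, siMEX3A_2 replicate 1 or siMEX3A_2 replicate 2, with log2 fold changes of -0.19, -0.27 and -0.31. The rise of EIF2AK3 with siMEX3A_1 was lost without NC replicate 2, where the log2 fold change was 0.26.

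Among 13 tested genes of oxidative folding outside the list, 6 rose and 4 fell with siMEX3A_1, and 2 rose and 7 fell with siMEX3A_2 (4 fell when replicate 1 or replicate 2 of siMEX3A_2 was left out). The shares of all genes tested that rose and fell were 27% and 25.9% with siMEX3A_1, and 25.2% and 25.7% with siMEX3A_2. The falls with siMEX3A_1 in this list were near that share. ERO1A, the oxidase that recharges protein disulfide isomerase, had 1672 and 1687 normalized counts in NC. It had 4129.7 and 4191 with siMEX3A_1, and 1465 and 1500.1 with siMEX3A_2. It was high with siMEX3A_1 (1.31, SE 0.06, adjusted p = 7.28e-08) and slightly low with siMEX3A_2 (-0.18, SE 0.06, adjusted p = 0.0219). The latter call was lost in the authors' deposited table (adjusted p = 0.102). It was also lost without any 1 of the NC or siMEX3A_2 libraries, with log2 fold changes from -0.19 to -0.16. PRDX4, the ER peroxiredoxin, rose with both (1.31, SE 0.07, adjusted p = 3.68e-07, and 0.64, SE 0.07, adjusted p = 7.51e-05). GPX8, a membrane-bound ER peroxidase, was low with siMEX3A_1 (-1.40, SE 0.08, adjusted p = 3.82e-07), and TMX4, a membrane thioredoxin, was low with siMEX3A_2 (-1.27, SE 0.10, adjusted p = 4.81e-06).

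Of 20 genes of N-glycosylation and glucose trimming, 12 rose and 3 fell with siMEX3A_1, and 6 rose and 9 fell with siMEX3A_2 (5 fell without NC replicate 2). The background was 27% higher and 25.9% lower with siMEX3A_1, and 25.2% and 25.7% with siMEX3A_2. The rises with siMEX3A_2 in this list were near that share. GANAB, the catalytic subunit of the glucosidase that feeds the lectin cycle, had 2222 and 2339 normalized counts in NC. It had 7514 and 7143 with siMEX3A_1, and 5479.5 and 5546 with siMEX3A_2, high with both siRNAs. DDOST, a subunit of the oligosaccharyltransferase, was lower with both, at -0.20 (SE 0.05, adjusted p = 0.00831) and -1.12 (SE 0.05, adjusted p = 3.6e-07), and the first of these calls was lost without NC replicate 2 (adjusted p = 0.0522). OSTC, of the same complex, rose with both (1.25, SE 0.07, adjusted p = 3.76e-07, and 0.57, SE 0.07, adjusted p = 9.84e-05), and ALG3, a mannosyltransferase of the sugar precursor, rose with siMEX3A_1 (0.77, SE 0.08, adjusted p = 4.31e-05).

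Of 22 genes of signal recognition, translocation and signal peptidase, 10 rose and 8 fell with siMEX3A_1, and 4 rose and 11 fell with siMEX3A_2 (2 rose without NC replicate 2 or siMEX3A_2 replicate 1). The background was 27% higher and 25.9% lower with siMEX3A_1, and 25.2% and 25.7% with siMEX3A_2. SPCS3, a subunit of the signal peptidase, was low with siMEX3A_1 (-1.31, SE 0.06, adjusted p = 9.17e-08). It did not pass with siMEX3A_2 (0.03, SE 0.06, adjusted p = 0.654). TRAM2 and SSR1, both proteins beside the SEC61 channel, were lower with both siRNAs, most with siMEX3A_1 (-1.22, SE 0.06, adjusted p = 1.61e-07, and -0.999, SE 0.06, adjusted p = 5.91e-07). SRPRB, a subunit of the signal recognition particle receptor, was higher with siMEX3A_1 (0.45, SE 0.07, adjusted p = 0.00041) and lower with siMEX3A_2 (-0.89, SE 0.07, adjusted p = 9.58e-06).

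Of 23 further ERAD genes, 16 rose and 4 fell with siMEX3A_1, and 6 rose and 4 fell with siMEX3A_2 (2 fell without NC replicate 1 or siMEX3A_2 replicate 2). The background was 27% higher and 25.9% lower with siMEX3A_1, and 25.2% and 25.7% with siMEX3A_2. The rises with siMEX3A_2 in this list were near that share. ERLIN2, a membrane protein that acts in the degradation of calcium channel receptors, rose with both siRNAs. Its values were 1.30 (SE 0.07, adjusted p = 2.16e-07) and 0.53 (SE 0.07, adjusted p = 0.000117). AUP1 and TMUB1, accessory membrane proteins of ERAD, rose with both as well, by 0.87 and 0.83 with siMEX3A_1 and by 0.25 and 0.38 with siMEX3A_2. The AUP1 call with siMEX3A_2 was lost without NC replicate 1 (adjusted p = 0.0539) or siMEX3A_2 replicate 1 (adjusted p = 0.0844). FAM8A1, a cofactor of the HRD1 complex, fell with both (-0.32, SE 0.08, adjusted p = 0.0075, and -0.88, SE 0.09, adjusted p = 2.31e-05). The first of these calls was lost with DESeq2 (adjusted p = 0.131) and in the authors' deposited table (adjusted p = 0.168). It was also lost without NC replicate 1, where the log2 fold change was -0.28.

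Of 11 other transducers and BiP cofactors, 5 rose and 3 fell with siMEX3A_1, and 6 rose and 2 fell with siMEX3A_2. The background was 27% higher and 25.9% lower with siMEX3A_1, and 25.2% and 25.7% with siMEX3A_2. The falls with siMEX3A_1 in this list were near that share. MBTPS2, the Golgi protease that makes the second cut in ATF6 and its relatives, had 826 and 696 normalized counts in NC, 161 and 160.2 with siMEX3A_1, and 198 and 202 with siMEX3A_2. Its 4 siRNA libraries were all far under the NC libraries, -2.25 (SE 0.10, adjusted p = 1.36e-07) and -1.93 (SE 0.10, adjusted p = 6.44e-07). CREB3, another membrane-bound factor released by that protease, rose with both (1.19, SE 0.07, adjusted p = 9.74e-07, and 0.49, SE 0.08, adjusted p = 0.000558), as did SIL1, a nucleotide exchange factor of BiP (0.69, SE 0.08, adjusted p = 8.12e-05, and 0.39, SE 0.09, adjusted p = 0.00389), whose siMEX3A_2 change did not pass in the authors' deposited table (adjusted p = 0.0668). BAK1, a cell death regulator reported to act on IRE1, was higher with siMEX3A_1 (0.65, SE 0.09, adjusted p = 0.000213) and lower with siMEX3A_2 (-0.97, SE 0.10, adjusted p = 4.46e-05).

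Of 17 genes of KDEL retrieval and ER exit, 6 rose and 7 fell with siMEX3A_1, and 3 rose and 7 fell with siMEX3A_2. Of all tested genes, 27% rose and 25.9% fell with siMEX3A_1, and 25.2% rose and 25.7% fell with siMEX3A_2. SEC23B, a coat component of vesicles leaving the ER, had 2094 and 1952 normalized counts in NC, 360.0 and 342 with siMEX3A_1, and 2157 and 2089 with siMEX3A_2. It was low with siMEX3A_1 (-2.53, SE 0.07, adjusted p = 1.17e-08), and the direct difference was -2.60 (SE 0.07, adjusted p = 1.69e-08). SEC13, of the same coat, was also lowest with siMEX3A_1 (-1.65, SE 0.07, adjusted p = 1.12e-07). KDELR3, a receptor that returns chaperones to the ER, and SAR1B, the GTPase that starts the coat, were lowest with siMEX3A_2 (-1.22, SE 0.08, adjusted p = 2.63e-06, and -0.91, SE 0.07, adjusted p = 8.82e-06).

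**Figure D5:**
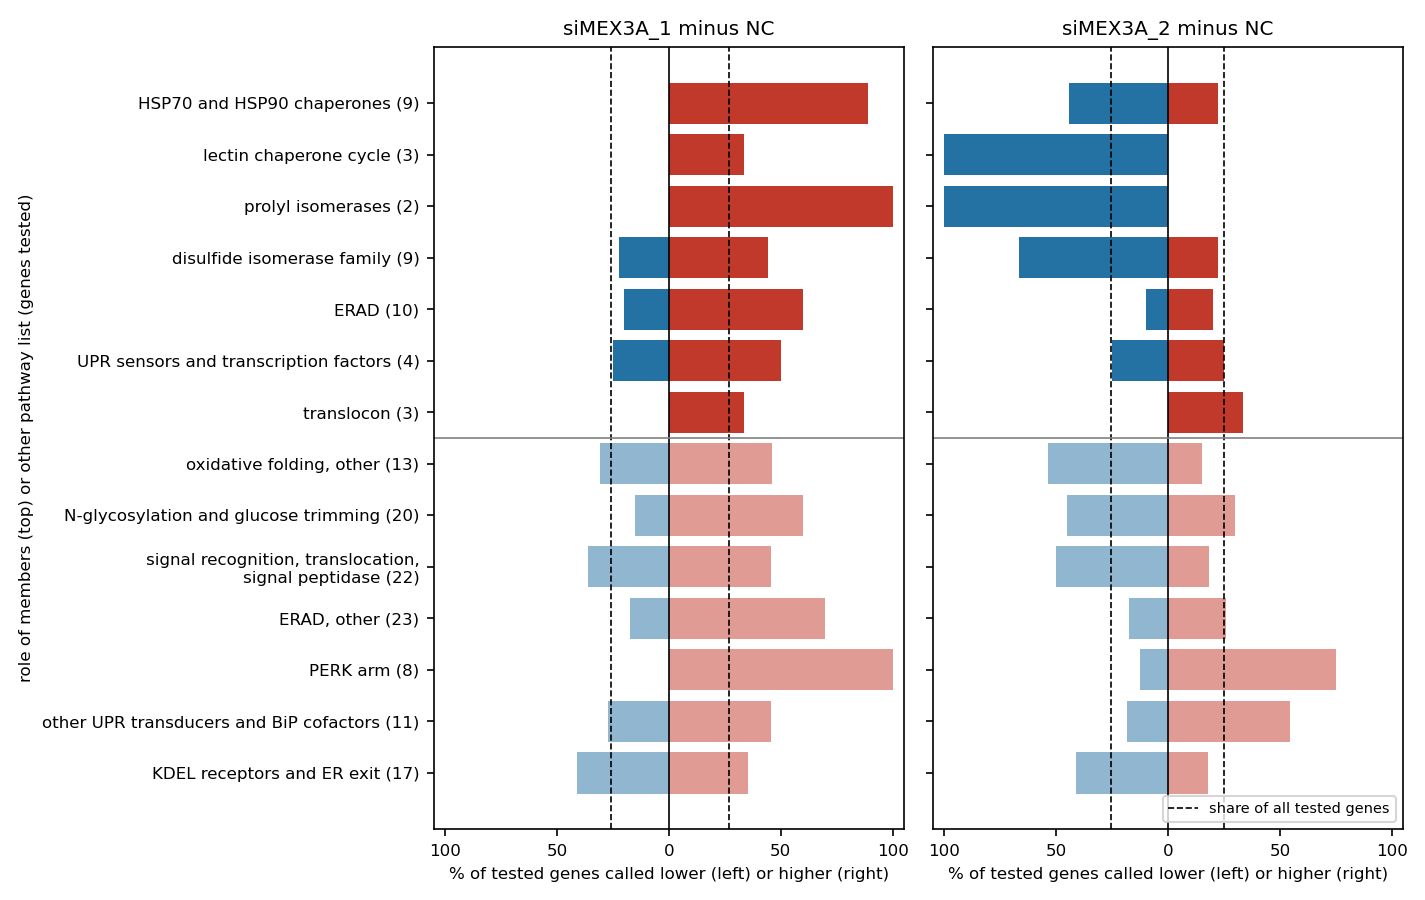
Percent of genes called higher (right of 0) and lower (left of 0) in each role of the 40 genes and in each further pathway list, for both siRNAs against NC, with lines at the share of all genes tested. Genes listed under the PERK arm are mostly called higher with both siRNAs (8 of 8 and 6 of 8). The chaperones are mostly higher with siMEX3A_1 (8 of 9) and include 4 of 9 lower with siMEX3A_2.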

How the data were processed

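RNA of ACHN cells was sequenced as single-end mRNA libraries, 2 for each of 3 groups, and the deposited tables list genes by symbol. STAR, RSEM, GRCh37 and hg19 appear, with no versions or roles, per the submitters' processing notes. Strand setting: not given in the sources used here. The count columns are the authors' expected counts, not normalized, per the file headers and values (68.6% to 69.4% of a library's values are whole). The other deposited columns are the authors' own comparison: a mean and a test statistic, treated as scores, log2 fold changes with standard errors, and p-values with adjusted p-values, per the file headers.

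Expected counts were rounded and tested with edgeR 4.0.16 (quasi-likelihood, TMM, default filter on low counts, R 4.3.3) in 1 fit over all 6 libraries with 3 residual degrees of freedom. Calls needed an adjusted p under 0.05 (Benjamini-Hochberg over 18583 genes), and "rose", "fell", "higher" and "lower" are used of such calls. Standard errors were computed as the absolute log2 fold change over the root of the F statistic. A normalized count is a rounded count scaled to the mean library by its TMM-adjusted size. With 2 libraries a group, precision rests on the spread between these libraries, at totals of 18825618 to 19158566 counts. DESeq2 1.42.0, other scalings and filters, a replicate block, the 4 libraries compared alone, each library left out in turn and the authors' deposited table were the alternatives.

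The members, their roles, the pathway lists and the tests were chosen with earlier results of these data known. All 40 members are named. Values per library are given for MEX3A, for up to 5 members of each role with the largest absolute log2 fold change in any of the 3 contrasts, and for HSPA5, whose promoter is shown. From each pathway list up to 4 genes are named, those called with the largest absolute log2 fold change against NC and a mean of at least 100 normalized counts. Promoter letters come from RefSeq on GRCh38.p14, matched by symbol, and no coordinate of the count tables was used with them. PDIA3, DERL1 and DERL3 are without an entry there. Replicates differed beyond sampling noise (chi-square per degree of freedom 3.97 for NC, 5.12 for siMEX3A_1, 2.3 for siMEX3A_2), and each library was counted as 1 replicate.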

Additional observations from a re-analysis of the deposited data

Results flagged for a closer look

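Of the 40 genes, 13 passed the test against NC with both siRNAs in opposite directions, which put each of them on the list for a closer look. The log2 difference, siMEX3A_1 minus siMEX3A_2, was 1.02 for HSPA5, 1.18 for HSP90B1, 1.61 for HYOU1 and 1.12 for MANF among the chaperones. It was 0.96 for CALR, 0.68 for FKBP2 and 1.31 for PPIB in the lectin cycle and the prolyl isomerases. Among the disulfide isomerases it was 0.88 for P4HB, 1.04 for PDIA3, 1.41 for PDIA5 and -0.58 for DNAJC10. For the transcription factors it was 1.59 for CREB3L2 and -0.90 for ATF6. Since these genes were chosen by opposite calls against the same NC libraries, the differences are given as a description of their size and are no further test of it. The calls against NC of FKBP2, P4HB and DNAJC10 were lost without single libraries, as given with those genes.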

How the results depend on the processing

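Of 120 results for single genes (40 genes in 3 contrasts), 102 kept their call under those of the 14 alternatives that gave a value, 18 changed it under at least 1, and 0 reversed. The authors' deposited table gave no value for the direct contrast, and the minimum mean of 50 counts gave none for DERL3. With library size as the only scaling, 8 genes in place of 5 were lower with siMEX3A_1, and the median log2 fold change was 0.34 with siMEX3A_1 and 0.63 in the direct contrast. The library medians differ by an SD of 0.02 between replicates. Leaving out 1 library gave medians of 0.37 to 0.46 with siMEX3A_1, -0.20 to -0.13 with siMEX3A_2 and 0.65 to 0.71 in the direct contrast. The replicate numbers of the labels did not pair the libraries (correlations of deviations -0.112, 0.027 and -0.008). With the replicate block, 24 genes were higher and 5 lower with siMEX3A_1, 8 higher and 17 lower with siMEX3A_2, and 30 higher and 4 lower in the direct contrast. The MEX3A call with siMEX3A_1 was lost with DESeq2 (adjusted p = 0.0888) and in the authors' deposited table (adjusted p = 0.137), and with siMEX3A_2 it passed at a minimum mean of 50 counts (adjusted p = 0.0489). For the 29 pathway genes and the gene lists, checked after the data were seen, 12 of 87 gene results changed their call and 0 reversed, and 17 of 84 list counts moved by over 1.5 times under at least 1 alternative. The direct PPP1R15A call was lost with the replicate block (adjusted p = 0.0701). The cause was not tested. Counting error is widest for low genes such as DERL3, which passed no test.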
